A study of Mus musculus with 12 samples.

Results

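NAD synthesis genes and sirtuins were examined in the hearts of MHC-CELFΔ mice, as a set of 10 genes that make, modify or use nicotinamide adenine dinucleotide (NAD): the nicotinamide riboside kinases Nmrk1 and Nmrk2, Nampt, the NMN adenylyl transferases Nmnat1 and Nmnat3, Nnmt, Nadk, the sirtuins Sirt1 and Sirt3, and Nnt. They are 10 of the 19014 gene symbols on the arrays and were found by current or older gene symbol. The set was selected on the measured difference of Nmrk2 between transgenic and wild type hearts, which was already known from these data, and its other genes belong to the same pathway. The differences of the 10 genes from wild type are therefore given as a description, with no p-value. Where a call against wild type is named for them, it is part of that description and not a test of the set.

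The RNA of 12 whole hearts, from FVB/N females aged 3 weeks, was measured on Illumina MouseWG-6 v2.0 bead arrays, 1 heart per array. There were 3 arrays of the mild line (MHC-CELFΔ-574, mild hearts), 3 of the severe line (MHC-CELFΔ-10, severe hearts), and 3 of the wild type littermates of each line, which were pooled as 6 wild type arrays. Both lines were kept hemizygous and carry a transgene for a dominant negative CELF protein confined to the nucleus, which blocks the splicing activity of the CELF family. The α-myosin heavy chain promoter drives it in heart muscle after birth, so it is not designed to act in the other cells of the same whole heart extract. Levels are log2 signals after background correction and quantile normalization, and levels of different genes cannot be ranked against each other because each probe binds differently. In whole hearts, fewer cells of a type and less RNA per cell cannot be told apart.

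NAD carries electrons in energy metabolism and is also consumed as a substrate by sirtuins and poly(ADP-ribose) polymerases, which release nicotinamide. Cells rebuild NAD from nicotinamide through Nampt, from nicotinamide riboside through the kinases Nmrk1 and Nmrk2, from nicotinic acid through Naprt, or from tryptophan. The nicotinamide riboside kinases and Nampt both yield nicotinamide mononucleotide (NMN), which the Nmnat enzymes join to an adenylate to form NAD. Nmrk2 is known as the muscle form of the kinase, while Nmrk1 is found in many tissues.

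Raw array medians ran from 102.8 to 118.8, and pairs of arrays correlated at 0.983 to 0.9955 over 15427 features. A feature here is 1 set of array values, since many probe IDs carry the same values on all arrays and were merged; the 24 probe IDs of the 10 genes gave 12 features. Of 7 listed ventricular heart muscle markers, 6 had a feature, with log2 signals from 11.07 to 15.32, and their summed linear signal was 109000 to 120000 in mild hearts, 113000 to 119000 in severe hearts and 110000 to 117000 in wild type. None of the 6 passed the test in either line, and none of the listed endothelium, macrophage, adipose tissue or red blood cell markers did.

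The promoters of both kinases are shown because Nmrk2 and Nmrk1 catalyze the same step and only Nmrk2 stood apart from wild type. Each line gives the 250 bases before the start site in the RefSeq promoter table on GRCm38.p6. Nmrk2 lies on the minus strand, at chr10:81202038-81202287, and Nmrk1 on the plus strand, at chr19:18631766-18632015. The Nmrk2 start site used lies inside the annotated gene span, which overlaps most of its window. Capitals mark a TATA box (TATAAA) and E-boxes (CANNTG) in Nmrk2, and a CCAAT box, read as ATTGG on this strand, in Nmrk1.
Nmrk2: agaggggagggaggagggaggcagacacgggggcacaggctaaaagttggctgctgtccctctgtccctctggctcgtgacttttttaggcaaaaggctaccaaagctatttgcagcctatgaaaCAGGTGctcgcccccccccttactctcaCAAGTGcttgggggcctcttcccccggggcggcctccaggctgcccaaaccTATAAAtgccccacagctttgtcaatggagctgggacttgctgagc
Nmrk1: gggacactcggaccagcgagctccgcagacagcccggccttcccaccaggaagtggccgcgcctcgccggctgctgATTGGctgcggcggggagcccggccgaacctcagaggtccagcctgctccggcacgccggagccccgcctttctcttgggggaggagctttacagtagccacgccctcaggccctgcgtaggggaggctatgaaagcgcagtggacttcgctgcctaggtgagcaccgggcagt

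The Nmrk2 window held 1 TATA box, 46 bases before the start site (position -46), and 2 E-boxes, and it was 58.8% G and C. The Nmrk1 window held neither motif and 1 CCAAT box, and it was 69.2% G and C. Motifs were sought on both strands in the windows of all 32851 promoters in the table, which held 11 windows for the 10 genes, with none used for Nnmt or Nnt. Nmnat1, Nadk and Sirt3 had more than 1 window each. Those of Nmnat1 overlap and share the same E-box, so the 11 are not all separate promoters. A TATA box was found in 1 of the 11, against 12.4% of all promoters, E-boxes in 9 against 66.2%, and a CCAAT box in 4 against 33.8%. Neither the CArG box, which serum response factor binds, nor the MEF2 site was found in any of the 11, against 1.47% and 2.92% of all promoters. The letters of a motif do not show that a factor binds there, and their absence from these windows does not show that none does.

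Nmrk2 (chr10:81198170-81202265), which phosphorylates nicotinamide riboside to NMN, was higher in both transgenic lines. Its log2 signal was 9.81, 9.36 and 9.32 in the mild hearts and 9.65, 9.20 and 9.43 in the severe hearts, against a lowest of 7.08, a median of 7.29 and a highest of 7.52 in the 6 wild type hearts. Every transgenic heart of both lines lay far above every wild type heart, and the 2 lines overlapped. The mean was 9.50 ± 0.27 in mild hearts and 9.43 ± 0.23 in severe hearts, against 7.29 ± 0.16 in wild type (SD, n = 3, 3 and 6).

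These means correspond to a log2 fold change of 2.21 in mild hearts (standard error 0.116, 4.61-fold, 95% interval 1.96 to 2.45) and 2.14 in severe hearts (standard error 0.116, 4.40-fold, 95% interval 1.89 to 2.38). Among 30854 features ordered by log2 fold change, Nmrk2 stood at place 4 in mild hearts and place 7 in severe hearts. Set against each line's own 3 littermates, the log2 fold change was 2.24 in mild hearts and 2.11 in severe hearts. Over 22 alternatives the log2 fold change ran from 1.98 to 2.49 in mild hearts and from 1.91 to 2.42 in severe hearts. These covered other processing, own littermates, other variance models and leaving out each array. The extremes came from the authors' own log2 table and from a smaller background offset.

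**Figure D1:**
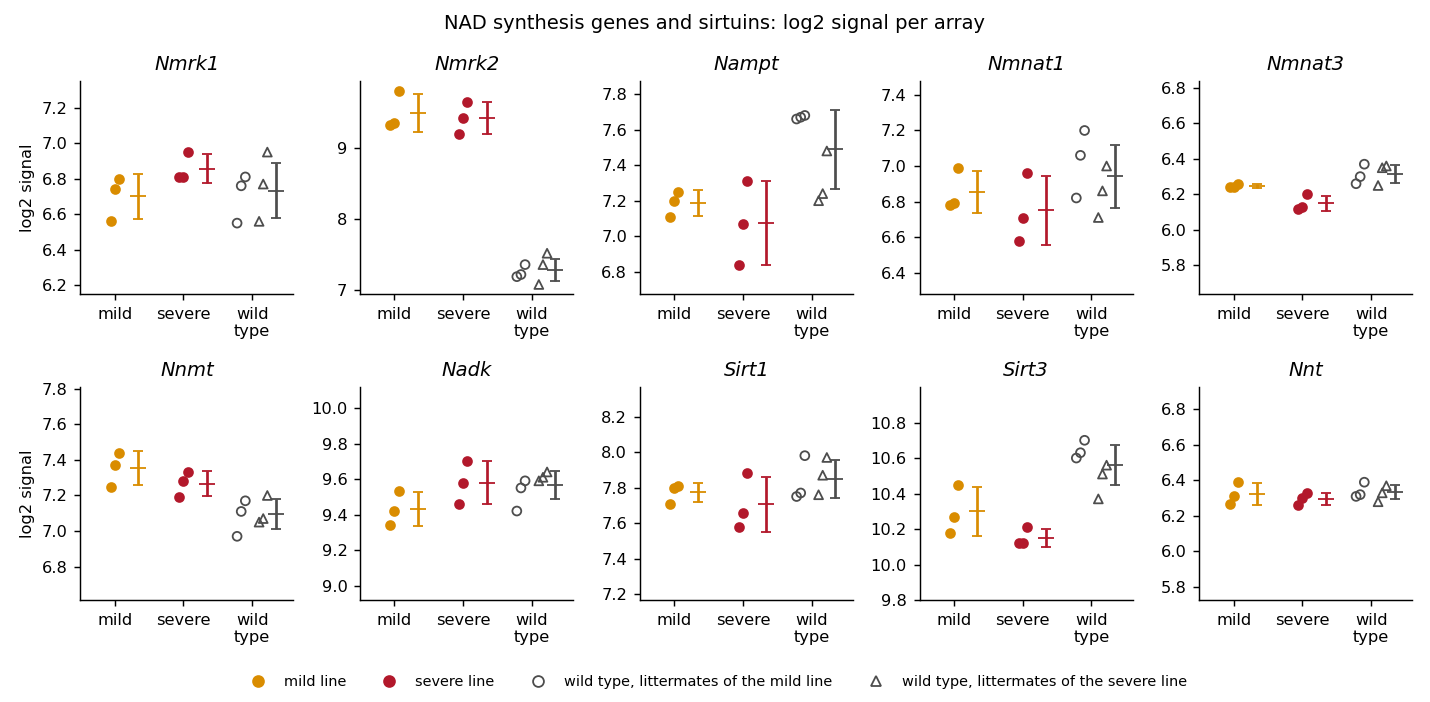
Log2 signal (y axis) of the 10 genes on each array, with the mild line, the severe line and wild type from left to right; bars give the mean and SD (n = 3, 3 and 6), and each panel has its own range. Nmrk2 was above 9 in all 6 transgenic hearts and at most 7.52 in wild type, while the wild type hearts split by line of origin for Nampt.

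Nmrk1 (chr19:18632016-18652428), the kinase for the same step in many tissues, did not move with Nmrk2. Its log2 signal was 6.56, 6.74 and 6.80 in mild hearts and 6.81, 6.95 and 6.81 in severe hearts, against 6.55, 6.76 and 6.95 as the lowest, median and highest in wild type. All 6 transgenic hearts lay within the wild type range. These signals were not far above the 5.94 to 6.34 of 3 genes of the Y chromosome, which female hearts lack, so a small change could go unseen. The log2 difference from wild type was -0.04 in mild hearts (95% interval -0.22 to 0.15) and 0.12 in severe hearts (95% interval -0.06 to 0.31).

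Nampt (chr12:32820335-32853369), which makes NMN from nicotinamide and is the rate-limiting enzyme of that salvage route, had lower mean signals in both lines than in wild type, but its wild type values did not overlap between the littermates of one line and those of the other. Its log2 signal was 7.11, 7.25 and 7.20 in mild hearts and 7.07, 6.84 and 7.31 in severe hearts. It was 7.67, 7.68 and 7.66 in the mild line's littermates and 7.24, 7.20 and 7.48 in the severe line's littermates. The mild hearts all lay below their own littermates, whereas the severe hearts overlapped theirs.

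Against the 6 pooled wild type hearts the log2 difference of Nampt was -0.30 in mild hearts and -0.42 in severe hearts (standard error 0.115 each). Against each line's own littermates it was -0.49 in mild hearts and -0.23 in severe hearts, so the order of the lines turned with the choice of wild type hearts. Nampt was called in neither line against the pooled wild type hearts and in mild hearts against their own littermates, and over 22 alternatives it was called in 2 in mild hearts and in 6 in severe hearts. The mild line's wild type littermates were higher than the severe line's by 0.36 (95% interval 0.14 to 0.58), with each of the 3 above all 3 of the severe line's, which did not pass the test over all features (limma, adjusted p = 0.213).

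The NMN adenylyl transferases Nmnat1, the nuclear form (chr4:149467569-149485210), and Nmnat3, a mitochondrial form (chr9:98287433-98420533), differed little from wild type. Nmnat1 ran from 6.78 to 6.99 in mild hearts, from 6.58 to 6.96 in severe hearts and from 6.71 to 7.20 in wild type, so the groups overlapped. Its log2 difference was -0.09 in mild hearts and -0.19 in severe hearts (standard error 0.102 each).

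Nmnat3 was 6.26, 6.24 and 6.24 in mild hearts and 6.13, 6.20 and 6.12 in severe hearts, against 6.25, 6.32 and 6.37 as the lowest, median and highest in wild type. All 3 severe hearts lay below all 6 wild type hearts, with a log2 difference of -0.16 (standard error 0.060), while the mild line overlapped wild type at -0.07. These signals are close to the median of all features (6.28) and to the 5.94 to 6.34 of 3 genes of the Y chromosome, which female hearts lack, so Nmnat3 was hardly above background on these arrays.

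Nnmt (chr9:48538002-48607655), which methylates nicotinamide and so withdraws it from salvage, was 7.25, 7.37 and 7.44 in mild hearts and 7.33, 7.28 and 7.19 in severe hearts, against 6.97, 7.09 and 7.20 as the lowest, median and highest in wild type. All 3 mild hearts were above wild type, and 2 of 3 severe hearts were. The log2 difference was 0.26 in mild hearts and 0.17 in severe hearts (standard error 0.070 each).

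Markers of fibroblasts, whose RNA is part of a whole heart, are given beside Nnmt, picked after their values were seen. Their sum reached its lowest value in wild type, but this was not particular to them. The endothelium sum was lowest at 1570 in wild type, 1590 in mild and 1620 in severe hearts. For red blood cell markers these lowest sums were 34200, 39100 and 38100. Wild type also had more arrays, 6 against 3. The summed linear signal of all 6 listed fibroblast markers was 6380 to 7960 in mild hearts and 6580 to 6660 in severe hearts, against 4820 to 6560 in wild type. That sum mostly reflects Dcn, with a mean log2 signal of 12.27 where the others had at most 8.82. Dcn did not pass in mild hearts (0.28, limma adjusted p = 0.203) or severe hearts (0.18, adjusted p = 0.484). Of the 6, none passed the test in mild hearts and 1, the collagen gene Col1a1, was higher in severe hearts (log2 difference 0.48, limma adjusted p = 0.0114). The part of these markers in the Nnmt values was not tested.

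Nadk (chr4:155562381-155591001), the cytosolic kinase that turns NAD into NADP, had 2 features. The brighter one was 9.42, 9.34 and 9.53 in mild hearts and 9.46, 9.58 and 9.70 in severe hearts, against 9.42, 9.59 and 9.64 as the lowest, median and highest in wild type. Its log2 difference was -0.14 in mild hearts and 0.01 in severe hearts (standard error 0.073 each), and the groups overlapped. The dimmer feature gave -0.06 and 0.03 (standard error 0.100 each) for the same comparisons.

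Sirt3 (chr7:140863663-140882309), the main deacetylase of mitochondria, had lower mean signals in both lines than in wild type. Its log2 signal was 10.45, 10.27 and 10.18 in mild hearts and 10.12, 10.12 and 10.21 in severe hearts, against 10.37, 10.58 and 10.70 as the lowest, median and highest in wild type. All 3 severe hearts and 2 of 3 mild hearts lay below every wild type heart. The log2 difference was -0.26 in mild hearts and -0.41 in severe hearts (standard error 0.078 each), or 0.837 and 0.752 times the wild type level.

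Sirt3 was also slightly higher in the mild line's littermates (10.60 to 10.70) than in the severe line's littermates (10.37 to 10.56), with no overlap, a difference of 0.16 that did not pass the test (limma, adjusted p = 0.547). Against own littermates the log2 difference was -0.34 in mild hearts and -0.33 in severe hearts. Sirt1 (chr10:63319005-63339035), a deacetylase of the nucleus, ran from 7.71 to 7.81 in mild hearts and from 7.58 to 7.88 in severe hearts, against 7.75 to 7.98 in wild type. Its groups overlapped, with log2 differences of -0.08 in mild hearts and -0.14 in severe hearts (standard error 0.079 each).

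Nnt (chr13:119335527-119409257), the mitochondrial transhydrogenase that makes NADPH from NADH, was at the level of the background on both of its features. The brighter one, which stands under 7 probe IDs, ran from 6.27 to 6.39 in mild hearts, from 6.26 to 6.33 in severe hearts and from 6.28 to 6.39 in wild type. The dimmer one ran from 5.92 to 6.13 in mild hearts, from 5.85 to 6.06 in severe hearts and from 6.04 to 6.24 in wild type. Little can be read about Nnt at these signals.

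A feature was called where limma's moderated test gave a Benjamini-Hochberg adjusted p under 0.05 over all 30854 features, whatever its fold change. With each gene taken by its brightest feature, 2 of the 10 genes were called in mild hearts, Nmrk2 and Nnmt, both higher, where 3.55% of all features were called. In severe hearts 2 of the 10 were called, Nmrk2 higher and Sirt3 lower, where 3.30% of all features were called. The call of Nnmt was kept in 9 of 22 alternatives and that of Sirt3 in 20 of 22. Nothing is read from these counts, since the comparison with wild type was known when the genes were chosen.

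The median log2 difference of the 10 genes was -0.07 in mild hearts and -0.09 in severe hearts, where the median of all features was 0.000 in mild hearts. Without regard to the test, 8 of the 10 had negative values in mild hearts and 6 in severe hearts. Under the rule of the study's methods, which also asks for an absolute fold change of 2, Nmrk2 alone was called in each line, where 0.269% of all features were called in mild hearts and 0.136% in severe hearts.

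**Figure D2:**
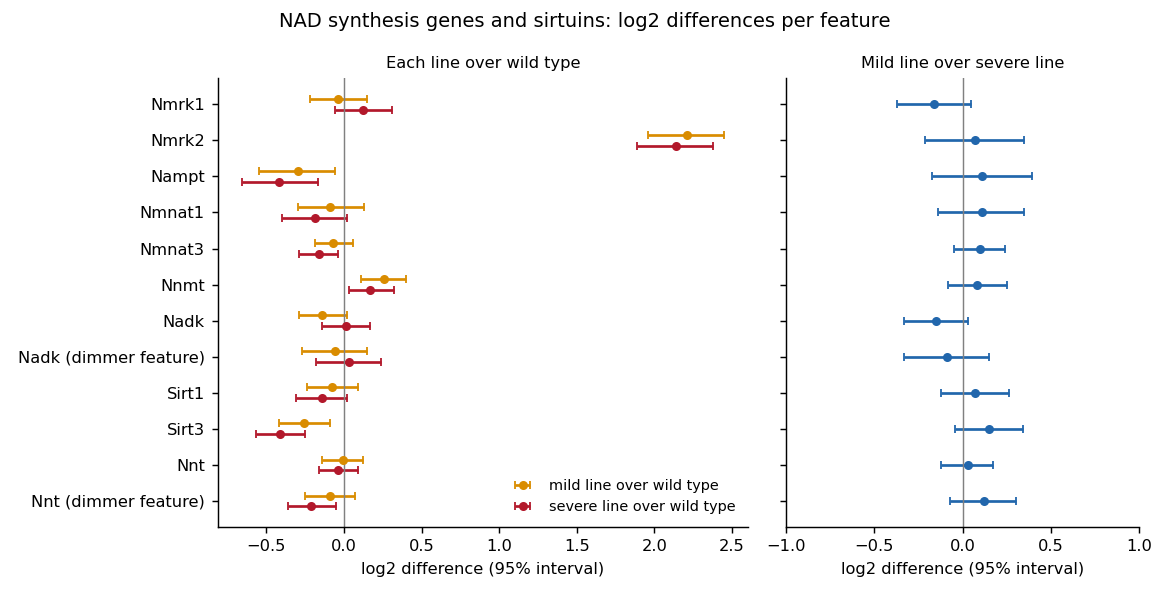
Log2 difference (x axis, with its 95% interval) of each feature of the 10 genes, for the mild and the severe line over wild type on the left and for the mild over the severe line on the right. Nmrk2 stands apart at 2.21 and 2.14, the next largest differences are those of Nampt and Sirt3, and every interval on the right contains 0.

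The direct comparison of the lines, which the choice of genes did not use, gave no call among the 10 genes, where 1.37% of all features were called. None of the 10 reached an unadjusted p under 0.05 in limma either, and none passed the rule with a fold change of 2. Nmrk2 was 9.50 ± 0.27 in mild hearts and 9.43 ± 0.23 in severe hearts (SD, n = 3 each), a difference of 0.07 with a 95% interval of -0.21 to 0.35 (limma, adjusted p = 0.897). That interval allows a difference of up to 0.35 in log2 signal, well under the difference of either line from wild type.

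Sirt3 differed between the lines by 0.15 (95% interval -0.04 to 0.34, limma adjusted p = 0.53) and Nnmt by 0.08 (95% interval -0.08 to 0.25, limma adjusted p = 0.748). In the description against wild type, Sirt3 was called in severe hearts only and Nnmt in mild hearts only, yet neither was shown to differ between the lines. Against each line's own littermates both calls changed, with Sirt3 called in both lines and Nnmt in neither. Nmrk1 had a difference of -0.16, with 3 of 3 mild hearts below all severe hearts (95% interval -0.37 to 0.05, limma adjusted p = 0.575).

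Between the 2 sets of wild type littermates (mild over severe line), again 0 of the 10 genes were called in limma and 0 passed the rule with a fold change of 2, where 0.0875% and 0.00648% of all features were called. At an unadjusted p under 0.05 there was 1, Nampt. The difference of Nmrk2 between these sets was -0.06 (95% interval -0.35 to 0.22, limma adjusted p = 0.93).

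Of 54 further genes of NAD synthesis, transport and use that were listed by role, 52 had a feature with 1 gene symbol. This list was drawn up with earlier results of these data known, so the p-values of its genes may not be free of that choice. In mild hearts 5 of the 52 passed the test (9.62%, against 3.55% of all features), 1 higher and 4 lower. In severe hearts 4 of the 52 passed (7.69%, against 3.30%), all lower. The share called among all features rises with their brightness, from 0.194% in the features below percentile 50 to 15.1% in the brightest group, above percentile 90, in mild hearts and from 0.207% to 14.8% in severe hearts, so these shares are not set against a like group of genes. The median log2 difference of the 52 was -0.01 in mild hearts and -0.05 in severe hearts.

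**Figure D3:**
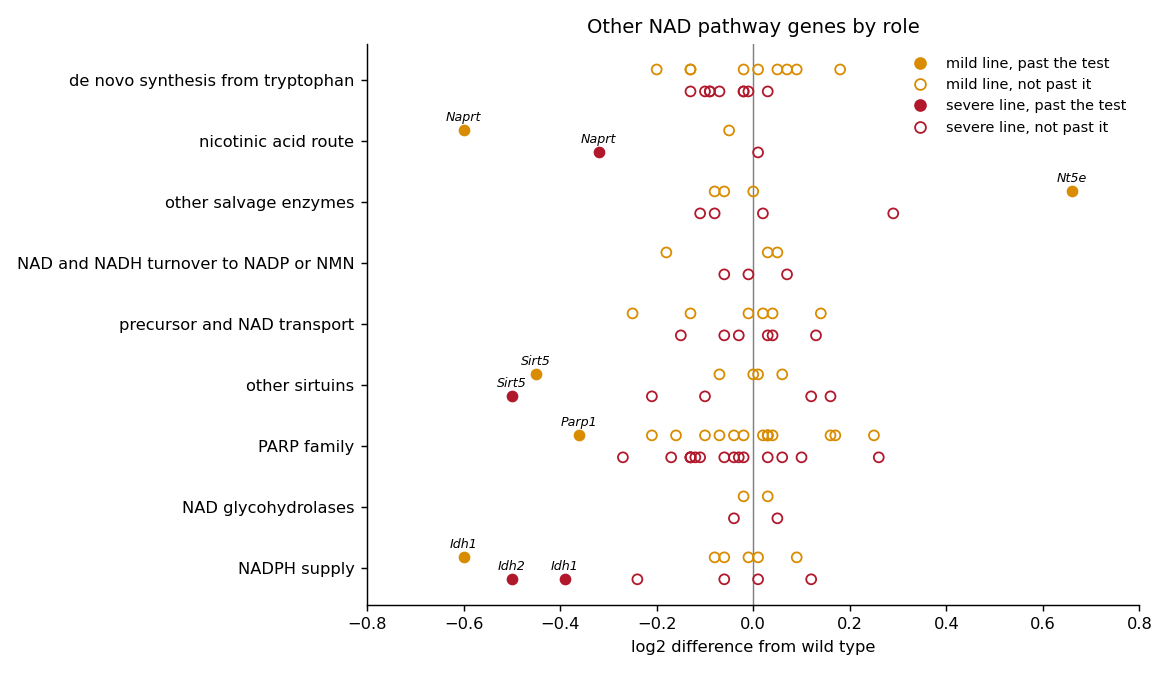
Log2 difference from wild type (x axis) of the 52 other NAD pathway genes, 1 point per gene and line, in rows by role; filled points passed the test (limma, adjusted p under 0.05) and are named. Most genes lie close to 0, and of the 9 filled points only Nt5e in mild hearts is higher than wild type.

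In the routes that feed NAD synthesis, Naprt and Nt5e changed. Naprt, which starts the route from nicotinic acid, was 8.29, 8.30 and 8.14 in mild hearts and 8.66, 8.57 and 8.35 in severe hearts, against 8.74, 8.80 and 8.98 as the lowest, median and highest in wild type. All 6 transgenic hearts lay below all wild type hearts. It fell in mild hearts, with a log2 difference of -0.60 (standard error 0.080, limma adjusted p = 9.2e-05) and in severe hearts, with one of -0.32 (standard error 0.080, adjusted p = 0.0335).

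The mild line's call of Naprt was kept in all 22 alternatives. The severe line's differences ran from -0.44 to -0.23 and its adjusted p from 0.00791 to 0.295 over all 22. It ended in 8 of them, among which were those without severe line replicate 2 (-0.34) or 3 (-0.23) and those without replicate 2 (-0.29) or 3 (-0.29) of the mild line's littermates. The difference between the lines, -0.29, did not pass the test (adjusted p = 0.163).

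Nt5e is the ecto-enzyme that dephosphorylates NMN to nicotinamide riboside outside the cell as well as AMP to adenosine. Of the 52 genes, Nt5e alone was called higher than wild type, and in mild hearts only. It was 8.51, 8.92 and 8.93 in mild hearts and 8.41, 8.43 and 8.43 in severe hearts, against 8.05, 8.11 and 8.22 as the lowest, median and highest in wild type, with no overlap between either line and wild type. The log2 difference was 0.66 in mild hearts (standard error 0.085, limma adjusted p = 6.6e-05), kept in all 22 alternatives. In severe hearts it was 0.29 (standard error 0.085, adjusted p = 0.0689), which did not pass, and the lines differed by 0.36 without passing (adjusted p = 0.0795). Without mild line replicate 1 both did (adjusted p = 0.0155 for the severe line and 0.005 for a difference of 0.50 between the lines), where adjusted p ran from 0.0155 to 0.469 and from 0.005 to 0.487 over all alternatives.

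Among the users of NAD, the sirtuin Sirt5, which removes succinyl and malonyl groups in mitochondria, fell in both lines. Its log2 signal was 8.41, 8.48 and 8.55 over the mild hearts, lowest to highest, and 8.30, 8.46 and 8.52 over the severe hearts, against 8.84, 8.91 and 9.10 as the lowest, median and highest in wild type. All 6 transgenic hearts lay below all wild type hearts. It fell in mild hearts, with a log2 difference of -0.45 (standard error 0.073, limma adjusted p = 0.000786) and in severe hearts, with one of -0.50 (standard error 0.073, adjusted p = 0.000382), and both calls were kept in all 22 alternatives. The lines differed by 0.05 (95% interval -0.13 to 0.23). None of the other 4 listed sirtuins passed in either line.

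Parp1, the main poly(ADP-ribose) polymerase of the DNA damage response, was the only one of 15 listed family members to pass, and only in mild hearts. It ran from 8.36 to 8.44 in mild hearts and from 8.48 to 8.65 in severe hearts, against 8.63 to 9.09 in wild type. It fell in mild hearts, with a log2 difference of -0.36 (standard error 0.088, limma adjusted p = 0.0275), while the severe line's difference was -0.17 (adjusted p = 0.43). The difference between the lines was not called (-0.19, adjusted p = 0.487). The mild line's call ended in 6 of 22 alternatives, among them those without mild line replicate 1 (-0.34), 2 (-0.35) or 3 (-0.38) and the comparison with its own littermates (-0.26), with adjusted p from 0.0147 to 0.277 over all 22.

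**Figure D4:**
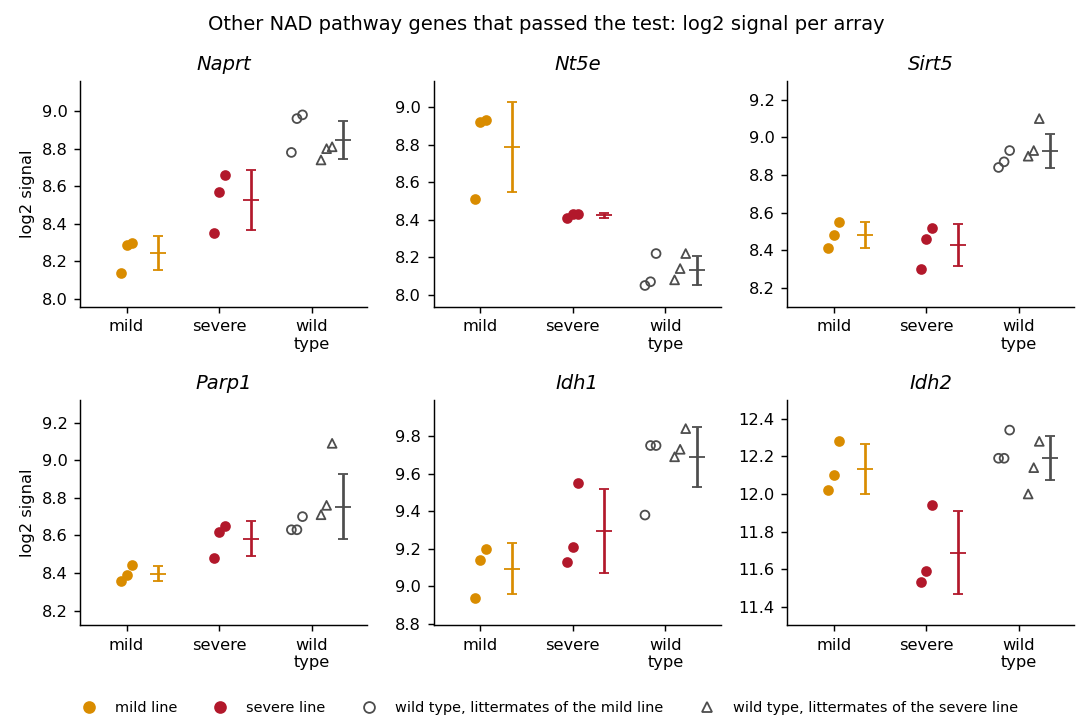
Log2 signal (y axis) on each array of the 6 other NAD pathway genes that passed a test, with the mild line, the severe line and wild type from left to right; bars give the mean and SD (n = 3, 3 and 6). Naprt, Sirt5 and Nt5e separate both lines from wild type, and Idh2 is lower in severe hearts alone.

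Both NADP-dependent isocitrate dehydrogenases, which supply NADPH, were affected. Idh1, the cytosolic enzyme, was 8.94, 9.20 and 9.14 in mild hearts and 9.21, 9.55 and 9.13 in severe hearts, against 9.38, 9.74 and 9.84 as the lowest, median and highest in wild type. All 3 mild hearts and 2 of 3 severe hearts lay below wild type. It fell in mild hearts, with a log2 difference of -0.60 (standard error 0.103, limma adjusted p = 0.00136), which all 22 alternatives kept, and in severe hearts, with one of -0.39 (adjusted p = 0.0401).

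In severe hearts the difference of Idh1 ran from -0.52 to -0.31 and its adjusted p from 0.00868 to 0.228 over all 22 alternatives, of which 10 ended the call. Among these 10 were the fits without severe line replicate 1 (-0.35) or 3 (-0.31), without mild line replicate 3 (-0.39), without replicate 1 (-0.39), 2 (-0.39) or 3 (-0.36) among littermates of the severe line, and without replicate 1 (-0.38) or 2 (-0.38) among littermates of the mild line.

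Idh2, the mitochondrial enzyme, was 12.02, 12.10 and 12.28 in mild hearts and 11.53, 11.59 and 11.94 in severe hearts, against a median of 12.19 and a highest of 12.34 in wild type, whose lowest heart lay just under the lowest mild heart. The mild line lay within the wild type range and the severe line below it. It fell in severe hearts, with a log2 difference of -0.50 (standard error 0.094, limma adjusted p = 0.0039), a call kept in 20 of 22 alternatives. It was lost when replicate 1 of the severe line was left out (-0.42, adjusted p = 0.0523) and with own littermates and the replicate number as a block together (-0.45, adjusted p = 0.0951; own littermates alone -0.45, adjusted p = 0.0316), the adjusted p running from 0.000986 to 0.0951 over all 22. In mild hearts the difference was -0.06 (adjusted p = 0.89).

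Idh2 was also the only one of the 52 genes called between the lines (1.92%, against 1.37% of all features). It was higher in mild hearts by 0.45 (standard error 0.108, limma adjusted p = 0.049), in 3 of 3 hearts. That adjusted p lies at the threshold, and the call ended in 12 of 21 alternatives, over which adjusted p ran from 0.0108 to 0.648. It ended without mild line replicate 1 (0.50), 2 (0.46) or 3 (0.37), without severe line replicate 1 (0.37) or 2 (0.40), without replicate 2 or 3 among littermates of the mild line (0.45 each) and without replicate 1 among littermates of the severe line (0.45). The call also ended with each line set against its own littermates, where the difference was 0.35 (limma, adjusted p = 0.648).

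In the remaining roles no gene passed in either line. Of the 9 genes of synthesis from tryptophan, the largest difference was that of Tdo2, which opens that route, at -0.20 in mild hearts (limma adjusted p = 0.224) and -0.10 in severe hearts. Of 6 transporters it was that of the nucleoside carrier Slc29a3, at -0.25 in mild hearts (adjusted p = 0.226) and -0.03 in severe hearts. Nudt12, which cleaves NADH, had -0.18 in mild hearts (adjusted p = 0.576) and -0.06 in severe hearts, and the NAD hydrolase Sarm1 had -0.02 and 0.05 for the same comparisons (adjusted p = 0.969 and 0.889).

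Over the 12 arrays, the genes whose log2 signal followed that of Nmrk2 most closely, among 11301 genes brighter than the median feature, were Celf4 (Pearson r = 0.985), a CELF family gene, Bex4 (0.984), Dusp26 (0.983), a phosphatase gene, Acta1 (0.982), skeletal α-actin, and Lrp11 (0.976). All 12 points share the split between transgenic and wild type hearts, on which Nmrk2 was selected, so a high r mostly marks that split. Celf4 had a mean log2 signal of 11.71 in mild hearts and 11.54 in severe hearts, against 5.98 in wild type. Brightness was judged by the mean over all 12 arrays, with a median of 6.25, so Celf4 passed only through its transgenic hearts. Whether its signal comes from the CELF transgene was not tested. With the group means taken out, r was -0.02 for Celf4, 0.94 for Bex4, 0.30 for Dusp26, 0.54 for Acta1 and 0.65 for Lrp11. These genes were picked by their r over the same 12 arrays, which includes the deviations from the group means. Their r without the group means is therefore not free of that choice, and nothing is read from it. Skeletal muscle markers are given beside Nmrk2 because it is a muscle gene: of 8 listed, 7 had a feature, 4 of them dimmer than the median feature. Their summed linear signal was 693 to 745 in mild hearts and 645 to 699 in severe hearts, against 685 to 836 in wild type, with Pvalb higher (0.65) and Tnni2 lower (-0.59) in mild hearts and Tnni2 lower (-0.53) in severe hearts. That sum was no higher in either line than the highest wild type heart. Tnni2 weighs most in it, with a mean log2 signal of 7.96 where the others had at most 6.65, so its fall can hide the rise of Pvalb. The part of skeletal muscle RNA in the Nmrk2 values was not tested.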

How the data were processed

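Total RNA of 12 whole hearts was measured, 3 per group. The raw files the authors deposited give each probe's bead intensity per array, and their values show no scaling between arrays. GenomeStudio is named in the submitters' processing notes, its version is not. A table of log2 values, which the authors deposited after correcting the background and quantile normalizing, served as an alternative. No detection p-values were used, and 6 lines without an ID were left out.

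Probe IDs whose 12 values were identical were merged, turning 45281 IDs into 30854 features. Of the IDs, 34885 have 1 gene symbol, 18 several and 10378 none. For 5 of the 12 features of the 10 genes the value stands under over 1 ID, and which probe was read cannot be told. Intensities were corrected by limma's normal-exponential model (offset 50), brought to 1 distribution by quantile normalization and log2 transformed (R 4.3.3, limma 3.58.1). Group means were fitted over all arrays, variances were moderated by empirical Bayes, and p-values were adjusted by Benjamini-Hochberg per comparison. The comparisons were each line over the 6 wild type hearts, the mild over the severe line, and the littermates of the mild line over those of the severe line, in a fit of 4 groups. Both comparisons with wild type share the same 6 hearts. Nothing states more than that the samples are separate hearts, so p-values measure the spread between hearts. Precision is limited by the number of arrays.

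The 10 genes and the lists were chosen with earlier results of these data known. Named were all 10 genes, other pathway genes called in any comparison of the lines, otherwise the largest change of a role, and the 5 genes most like Nmrk2. A gene's call used its brightest feature. Skeletal muscle markers, Col1a1 and Dcn were named after their values were seen. The fit was tested on simulated data. Alternatives were no background correction, an offset of 16, median scaling, the authors' table, only features brighter than the median, averaged features, own littermates, trend and robust variances, array weights, the replicate number as a block together with own littermates, the fold rule of the methods (at least 2-fold, and either adjusted p under 0.05 or unadjusted p under 0.001) and leaving out each array. Promoters and gene positions are from RefSeq, GRCm38.p6, and matched all 10 genes by ID for position.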

Additional observations from a re-analysis of the deposited data

Results flagged for a closer look

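Among 18 features examined for an array far from the rest of its group, 3 wild type values stood out by Dixon's test at the 95% level, which chance gives in about 1 of 20 groups. Whether 3 is more than chance would give over all groups examined was not tested. Sirt5 was 9.10 on replicate 1 of the severe line's littermates, with a gap of 0.641 of the wild type range. Parp1 was 9.09 on the same array, with a gap of 0.715 of the range, and without that array its difference from wild type in mild hearts was -0.29. Idh1 was 9.38 on replicate 3 of the mild line's littermates, with a gap of 0.678 of the range, and without that array its difference was -0.66 in mild hearts and -0.46 in severe hearts.

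Idh2 differed between the lines by the test of the difference itself, with the mild line higher by 0.45 (limma, adjusted p = 0.049). Over 21 alternatives the difference was 0.35 to 0.61 and the adjusted p 0.0108 to 0.648, and 12 of them ended the call.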

How the results depend on the processing

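The log2 fold change of Nmrk2 without background correction was 2.0 in mild hearts and 1.93 in severe hearts, with an offset of 16 it was 2.49 and 2.42 for the same comparisons, and with the authors' own values 1.98 and 1.91. Leaving out each array gave 2.05 to 2.29 in mild hearts and 2.03 to 2.25 in severe hearts. Of the 10 genes, 1 rather than 2 was called in mild hearts with an offset of 16, with trend and robust variances and under the fold rule, and 1 to 3 with an array left out. That count was 1 without replicate 2 or 3 of the mild line, any severe line replicate, or replicate 1 or 2 of either set of littermates, each ending the call of Nnmt. With own littermates 3 were called in mild hearts (Nmrk2, Nampt and Sirt3), and with own littermates and the replicate number as a block together 2 (Nmrk2 and Nampt). In severe hearts 1 was called with an offset of 16, with own littermates and the block together (2 with own littermates alone) and under the fold rule, and 2 to 3 with an array left out. Between the lines and between the 2 sets of littermates 0 were called in limma in each of the 22 and 21 alternatives.

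Of the other pathway genes, 0 passed the fold rule in either line or between them. With an array left out 4 to 5 passed in mild hearts and 2 to 5 in severe hearts, with 2 without severe line replicate 1 or 3 or replicate 2 of the mild line's littermates. In severe hearts 2 passed with an offset of 16 and 1 with own littermates and the replicate number as a block together, against 3 with own littermates alone. Between the lines 0 passed with an offset of 16, with averaged features, with own littermates and with trend and robust variances, and 0 to 2 with an array left out. An array left out or own littermates alone mean fewer hearts; the cause of the other changes was not tested. Over 58 pairs of a gene and a comparison and 1240 values under an alternative, 1173 kept their side of the threshold, 53 lost and 14 gained a call, and 0 called differences changed sign.

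No pairing of hearts by replicate number was seen: deviations of same-numbered hearts correlated at 0.10, -0.02 and -0.07 in mild hearts with their littermates and at -0.16, -0.36 and 0.01 in severe hearts with theirs. Hearts of different numbers were not compared, so these few values cannot exclude a pairing. With the number as a block and own littermates, 622 features were called in mild hearts and 534 in severe hearts, against 721 and 716 with own littermates alone. Median scaling moved the median of all features by at most 0.024. Near the background, as for Nnt and Nmnat3, signal limits what can be seen.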
